A study of Mesocricetus auratus with 8 samples.

Results

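The genes described here are the 5 SMYD lysine methyltransferases (Smyd1, Smyd2, Smyd3, Smyd4 and Smyd5) and the 2 UNC45 myosin chaperones (Unc45a and Unc45b) of the Syrian hamster, 7 of the 17590 genes with values in the deposited table. They were chosen by gene symbol, each symbol named a single row, and all 7 passed the filter on low counts that left 12506 genes for testing. Satellite cells (SCs), the stem cells of skeletal muscle, had been taken from the hindlimb muscle of sexually mature wild-type (WT) male hamsters, enriched by preplating and sequential replating, and grown on Matrigel in growth medium (GM). All cultures were kept at 37°C for 48 h and then for 24 h in GM with HEPES at 37°C. The 4 control libraries were sampled at this point, on day 3, and the 4 cold libraries on day 4 after a further 24 h at 4°C in the same medium. Cold exposure and the later day of sampling therefore cannot be told apart, since day 4 cultures without cold exposure were not analysed here. The titles place all controls on day 3, whereas their treatment labels give 3, 4, 5 and 6 days at 37°C for replicates 1 to 4. The study calls the libraries biological replicates, but whether each came from 1 animal or from pooled animals is not stated in the sources used here.

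SMYD proteins carry a SET domain, which transfers methyl groups to lysine, split by a MYND zinc finger that binds other proteins. SMYD1 is made in heart and skeletal muscle and is needed for myofibril assembly, whereas the other family members are broadly expressed and methylate cytoplasmic and nuclear proteins. UNC45 proteins fold the motor domain of myosin together with HSP90. UNC45B does so for the sarcomeric myosins of striated muscle, and UNC45A for the non-muscle myosins of most cells.

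Both striated muscle genes of the set, Smyd1 and Unc45b, were lower in the cold libraries, and the 5 broadly expressed genes differed by less than the spread between libraries. Smyd1 stood at 9.98 ± 4.31 TPM (a level per transcript length, scaled to the same total in every library) in controls and 3.59 ± 1.16 TPM after cold exposure, each as the mean ± SD of 4 libraries. Unc45b stood at 15.8 ± 5.51 TPM and 7.94 ± 1.86 TPM. In the edgeR fit that leaves out the replicate number, 0 of 7 members passed an adjusted p of 0.05, against 0.072% of all genes tested called lower, and 2 of 7 (Smyd1 and Unc45b) were lower at an unadjusted p under 0.05, against 4.13% of all genes tested. Once the replicate number was entered as a block, 2 of 7 members (Smyd1 and Unc45b) fell, against 4.07% of all genes tested, and 0 of 7 rose, against 1.26%. No member rose at an unadjusted p under 0.05 in either edgeR fit or in DESeq2. DESeq2 without a block also called Smyd1 and Unc45b lower, against 0.799% of the genes it fitted. By TPM, 1 of 7 members had no overlap between groups with the cold lower, against 2.41% of all genes tested, and 2 of 7 were lower in the cold in all 4 pairs of the same replicate number, against 10.5%.

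**Figure D1:**
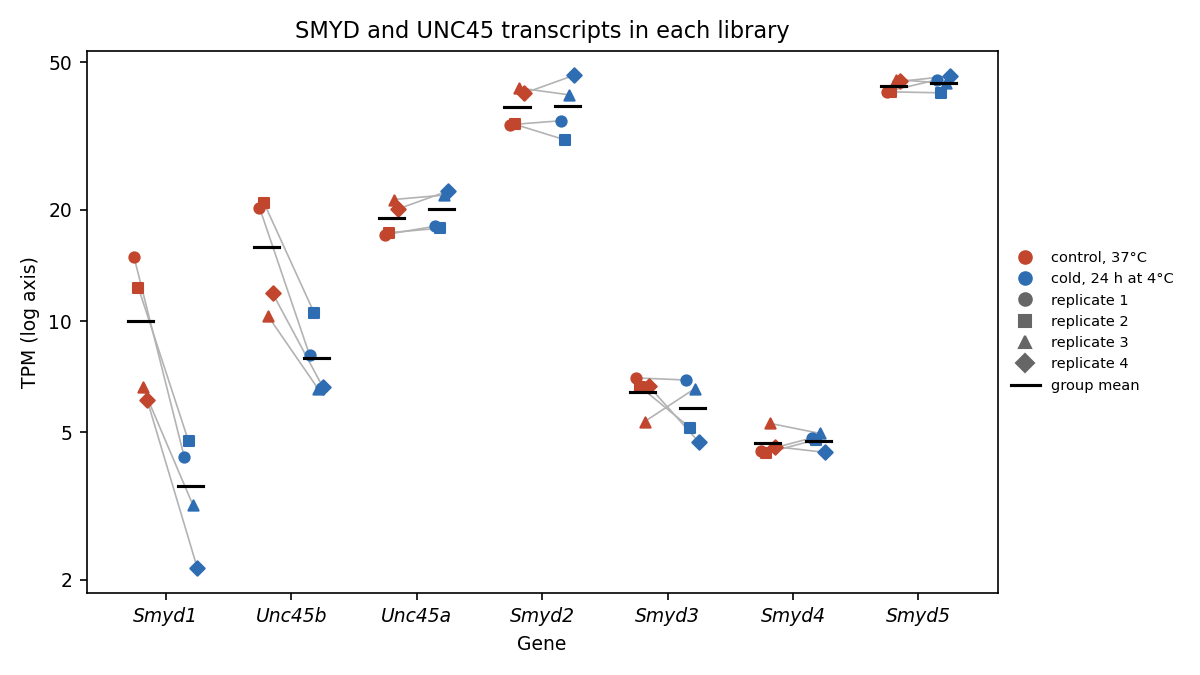
TPM (log axis) of each member in each of the 8 libraries, with control libraries in red, cold libraries in blue, the replicate number as the marker shape, a grey line joining libraries of the same number and a black bar at the group mean. Smyd1 and Unc45b are lower in the cold library of every number, and the lines of the other 5 genes are close to level, apart from Smyd3, whose lines cross.

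The 8 libraries held between 16530747 and 18533801 expected counts. In the first principal component (54.5% of the variance) replicates 1 and 2 stood apart from replicates 3 and 4 in both groups, and the second (17.9%) separated cold from control. All 9 SC and myoblast markers were present, Pax7 at 12.7 ± 2.17 TPM in controls, with sums of 2220 to 2680 TPM in controls and 2100 to 2470 TPM in cold libraries. Fibroblast markers summed to 1010, 1000, 1320 and 1520 TPM in control replicates 1 to 4 and to 1060, 987, 1340 and 1480 TPM in cold replicates 1 to 4. Both groups had the higher sums in replicates 3 and 4. Immune markers summed to 25.9 to 54.2 TPM in controls and 26.4 to 55.7 TPM in cold libraries, with Ptprc and Adgre1 under 1 TPM. Endothelial markers summed to at most 3.23 TPM and Schwann cell markers to at most 3.91 TPM. Markers of differentiated muscle, and Acta2 among the smooth muscle and pericyte markers, moved with Smyd1 and Unc45b, as given beside those genes.

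Smyd1 is the family member restricted to striated muscle, where its protein acts on myofibrils. Control replicates 1 to 4 held 14.89, 12.29, 6.62 and 6.11 TPM of Smyd1, and cold replicates 1 to 4 held 4.30, 4.73, 3.18 and 2.15 TPM. Every cold library lay below every control library. These values rest on 259 to 624 expected counts per control library and 90 to 197 per cold library, so that counting error was 4.0% to 10.5% of a value, whereas the libraries of a group varied by 45.2% (control) and 32.2% (cold) of their mean.

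Control replicates 1 and 2 held 2.14 times the Smyd1 TPM of control replicates 3 and 4, and the same split was seen in cold libraries, at 1.69 times. The cold library held 28.9%, 38.5%, 48.0% and 35.2% of the Smyd1 TPM of the control library of the same number. The cold mean was 36.0% of the control mean, the lowest share among the 7 members.

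The fitted log2 fold change of Smyd1 was -1.51 (SE 0.36, 95% interval -2.31 to -0.70), with an edgeR adjusted p of 0.250. With the replicate block it was -1.49 (SE 0.10, 95% interval -1.69 to -1.28) and the edgeR adjusted p was 6.03e-09, so in edgeR the call depends on the block while the size of the difference hardly moved. DESeq2 called Smyd1 without a block, with an adjusted p of 0.00181 (log2 fold change -1.51). In edgeR with the block, Smyd1 also passed the study's rule, which asks in addition for at least a 2-fold difference and which 0.808% of genes met in the lower direction with the block and 0.04%, without Smyd1, in edgeR without it. An exact two-sided permutation test of its TPM gave p = 0.0286, the smallest that 4 against 4 libraries can give, among 7 members compared. Within replicates 1 and 2 alone its log2 fold change was -1.65, in a fit that called 6.85% of genes lower. Within replicates 3 and 4 alone it was -1.24, in a fit that called 0.381% lower, and edgeR called Smyd1 in both.

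Unc45b encodes the chaperone of the sarcomeric myosins. Its level was 20.25, 20.87, 10.29 and 11.88 TPM in control replicates 1 to 4 and 8.08, 10.53, 6.54 and 6.63 TPM in cold replicates 1 to 4. The groups overlapped, since cold replicate 2 lay just above control replicate 3, but each cold library was below the control library of its number. The cold library held 39.9%, 50.5%, 63.6% and 55.8% of the control level in the pairs 1 to 4.

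As for Smyd1, replicates 1 and 2 held more Unc45b than replicates 3 and 4, by 1.85 times in controls and 1.41 times in cold libraries. The log2 fold change of Unc45b was -1.03 (SE 0.28, 95% interval -1.65 to -0.40), with an edgeR adjusted p of 0.332. With the replicate block it was -0.998 (SE 0.09, 95% interval -1.18 to -0.82) with an edgeR adjusted p of 1.8e-07, just short of the fold that the study's rule asks for. The exact two-sided permutation test of its TPM gave p = 0.0571. Within replicates 1 and 2 alone the log2 fold change of Unc45b was -1.21, and within replicates 3 and 4 alone it was -0.74, both called by edgeR.

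The markers of differentiated muscle split the libraries in the same way as these genes. Their 8 genes summed to 3130 to 6220 TPM in controls and 1710 to 3140 TPM in cold libraries, with the highest sums in control replicates 1 and 2, as for Smyd1 and Unc45b. All 8 fell in the fit with the replicate block, with a median log2 fold change of -1.17 beside 0.0075 for all genes tested, none passed without it (5 at an unadjusted p under 0.05) unless library totals replaced the TMM factors, which called 1 (Acta1, edgeR adjusted p 0.0458), and DESeq2 called 3. The 5 smooth muscle and pericyte markers summed to 2020, 1850, 1190 and 1340 TPM in control replicates 1 to 4 and 1250, 1320, 1030 and 1080 TPM in cold replicates 1 to 4, nearly all of it Acta2. Of these 5 genes 1 fell with the block, Acta2, the smooth muscle actin that myoblasts also make, from 1530 ± 401 TPM to 1100 ± 145 TPM (log2 fold change -0.46, edgeR adjusted p 2.68e-05). None of the 5 passed without the block (1 at an unadjusted p under 0.05) or in DESeq2, and 2 were lower with it at an unadjusted p under 0.05. The others had log2 fold changes with the block of 0.02 (Myh11), -0.06 (Pdgfrb), -0.09 (Cspg4, lower in 4 of 4 pairs) and -0.39 (Rgs5, under 1 TPM in every library). With the block, 4 of the 9 SC and myoblast markers also fell, against 4.07% of all genes tested, with a median over the list of -0.09, while 0 of 9 passed without it (1 at an unadjusted p under 0.05) and DESeq2 called 1. With the block, 0 of 7 fibroblast markers passed (1 lower at an unadjusted p under 0.05, and 0 called by DESeq2). In bulk RNA, fewer cells of a kind and less of a transcript per cell cannot be told apart, and the part of differentiating or smooth muscle cells in the lower Smyd1 and Unc45b was not tested. Nor was the part of fibroblasts in the split of replicates 1 and 2 from 3 and 4 tested.

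**Figure D2:**
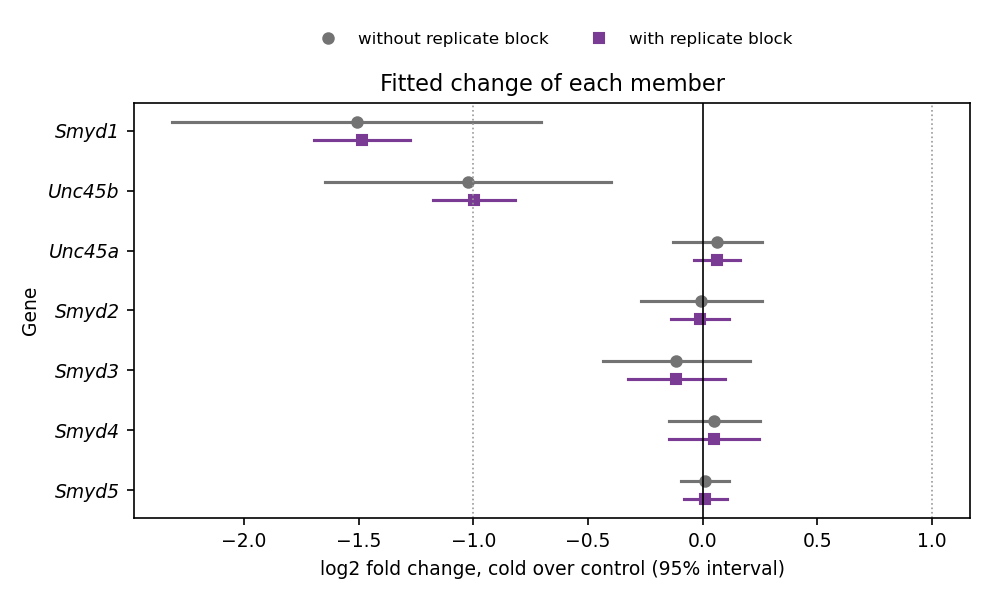
Fitted log2 fold change of each member, cold over control, with its 95% interval, from the edgeR fit without (grey circles) and with (purple squares) the replicate block. Dotted lines mark a log2 fold change of -1 and of 1. The intervals of Smyd1 and Unc45b lie below 0 in both fits, and those of the other 5 genes include 0.

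The fitted difference of Unc45a, the chaperone of non-muscle myosin, was close to 0. Its level was 17.11, 17.32, 21.29 and 20.08 TPM in control replicates 1 to 4 and 18.03, 17.81, 21.88 and 22.46 TPM in cold replicates 1 to 4. The cold library was slightly above its control in all 4 pairs, which held for 12.8% of all genes tested, and the groups overlapped. The log2 fold change was 0.06 (95% interval with the block -0.04 to 0.16, edgeR adjusted p 0.544), and the exact permutation p of its TPM was 0.514. Replicates 1 and 2 held less Unc45a than replicates 3 and 4, at 0.832 times in controls and 0.808 times in cold libraries, the reverse of Unc45b.

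Because of this, the pair of chaperone genes changed places between libraries. Unc45b exceeded Unc45a in control replicates 1 and 2, at 1.18 and 1.20 times its TPM, but not in control replicates 3 and 4, at 0.483 and 0.592 times. In cold replicates 1 to 4 Unc45b was at 0.448, 0.591, 0.299 and 0.295 times Unc45a. Unc45b made up 32.6% to 54.6% of the summed UNC45 TPM in controls and 22.8% to 37.2% in cold libraries, while the sum itself was 31.58 to 38.19 TPM in controls and 26.11 to 29.09 TPM in cold libraries.

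Smyd2 encodes a largely cytoplasmic methyltransferase whose reported substrates include p53, RB1 and HSP90. Its level was 33.91, 33.99, 42.59 and 41.19 TPM in control replicates 1 to 4 and 34.74, 30.85, 40.82 and 46.07 TPM in cold replicates 1 to 4. The values sorted by replicate number, with replicates 1 and 2 at 0.810 times replicates 3 and 4 in controls and 0.755 times in cold libraries. Its log2 fold change was -0.01 (95% interval with the block -0.14 to 0.12, edgeR adjusted p 0.953), and the exact permutation p of its TPM was 0.914.

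Smyd5, for which activity on histones and on a ribosomal protein has been described, had the highest mean TPM of the members in both groups, although Smyd2 lay just above it in cold replicate 4. Controls held 41.66, 41.59, 44.88 and 44.39 TPM, and cold replicates 1 to 4 held 44.83, 41.33, 43.88 and 45.88 TPM. The controls lay within the range of the cold libraries, and the 95% interval of the log2 fold change with the block, -0.08 to 0.11, was the narrowest of the 7 (edgeR adjusted p 0.933).

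Smyd3, which methylates histones and the kinase MAP3K2, stood at 7.02, 6.64, 5.35 and 6.66 TPM in control replicates 1 to 4 and at 6.93, 5.14, 6.57 and 4.70 TPM in cold replicates 1 to 4. The cold library was lower in 3 of the 4 pairs, and the groups overlapped. Its log2 fold change was -0.11 (95% interval with the block -0.33 to 0.10, edgeR adjusted p 0.605). Counts and TPM of Smyd3 did not run in parallel: library-scaled counts divided by TPM varied between 1.27 and 1.71 across libraries, with the highest value in cold replicate 2, a range of 1.35 times against at most 1.08 times for the other members. RefSeq lists 3 transcripts of Smyd3, and whether the libraries used them differently was not tested.

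Smyd4, the least studied member, had the lowest control level. It stood at 4.45, 4.40, 5.29 and 4.58 TPM in control replicates 1 to 4 and at 4.83, 4.78, 4.97 and 4.42 TPM in cold replicates 1 to 4. Its counts varied between libraries by 7.58% in controls and 3.41% in cold libraries, no more than counting alone gives (8.40% and 8.16%). Its log2 fold change was 0.05 (95% interval with the block -0.15 to 0.25, edgeR adjusted p 0.839).

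In controls the mean TPM ran in the order Smyd5, Smyd2, Unc45a, Unc45b, Smyd1, Smyd3 and Smyd4. The ranges of Smyd2 and Unc45a did not overlap, nor did those of Smyd3 and Smyd4, whereas every other pair of neighbours differed by less than the sum of their SDs. In cold libraries Smyd1 moved from the fifth place to the last, and it lay below Smyd4 in 4 of 4 cold libraries, although by less than the sum of their SDs. In cold libraries the ranges of Smyd2 and Unc45a again did not overlap, nor did those of Unc45a and Unc45b, whereas those of Smyd3 and Smyd4 now did. Smyd1 made up 5.94% to 14.6% of the summed SMYD TPM in controls and 2.08% to 5.45% in cold libraries. The sum of the 5 SMYD genes was 98.91 to 104.7 TPM in controls and 86.83 to 103.2 TPM in cold libraries, since Smyd2 and Smyd5 supplied most of it.

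Ratios of TPM within a library compare genes without reference to the library total, and 6 were tested by exact two-sided permutation, none of which passed after Benjamini-Hochberg adjustment. The log2 ratio of Smyd1 to the sum of Smyd2 to Smyd5 was -3.31 ± 0.73 in controls and -4.75 ± 0.63 in cold libraries (SD, n = 4), with no overlap (exact p = 0.0286, adjusted p = 0.0857). For Unc45b to Unc45a it was -0.32 ± 0.68 and -1.35 ± 0.49 (exact p = 0.0571, adjusted p = 0.0857). Both ratios were lower in the cold library of all 4 pairs.

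Smyd1 was lower relative to Unc45b as well. The log2 ratio of Smyd1 to Unc45b was -0.44, -0.76, -0.64 and -0.96 in control replicates 1 to 4 and -0.91, -1.15, -1.04 and -1.62 in cold replicates 1 to 4. The ratio was lower in the cold library of every pair, by 0.39 to 0.67 on the log2 scale, but the groups overlapped and the exact permutation p was 0.0571 (adjusted p = 0.0857). Over the 4 pairs an exact sign-flip test gave p = 0.125, the smallest it can give.

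Sarcomeric myosins are the clients of UNC45B. The 7 sarcomeric myosin heavy chain genes with values summed to 561.5, 537.2, 286.9 and 312.9 TPM in control replicates 1 to 4 and to 190.9, 228.2, 151.9 and 127.5 TPM in cold replicates 1 to 4. No single row with values bore the symbols Myh6, Myh7 or Myh8, so the sum leaves these genes out and is not all sarcomeric myosin. Myh3 is the embryonic myosin. The log2 ratio of Unc45b to this sum was -4.79, -4.69, -4.80 and -4.72 in controls, an SD of 0.06, although both quantities differed about 2-fold between these libraries. In cold replicates 1 to 4 it was -4.56, -4.44, -4.54 and -4.27, above every control, and the means differed by 0.30 on the log2 scale (exact p = 0.0286, adjusted p = 0.0857). The sum is mostly Myh3, whose log2 fold change with the block was -1.41 beside -0.998 for Unc45b, whereas that of Myh1 was -0.64, smaller in size than that of Unc45b.

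The log2 ratio of Smyd1 to the same sum was -5.45 ± 0.18 in controls and -5.63 ± 0.18 in cold libraries. It was lower in the cold library of each pair, by 0.14 to 0.24, but the groups overlapped (exact p = 0.229, adjusted p = 0.274). For Unc45a to the summed non-muscle and smooth muscle myosin heavy chains it was -3.93 ± 0.08 and -3.97 ± 0.17 (exact p = 0.657, adjusted p = 0.657). Myosin counts were partly fractional in the deposited table, and how reads shared by near-identical Myh genes were assigned is not given in the sources used here.

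**Figure D3:**
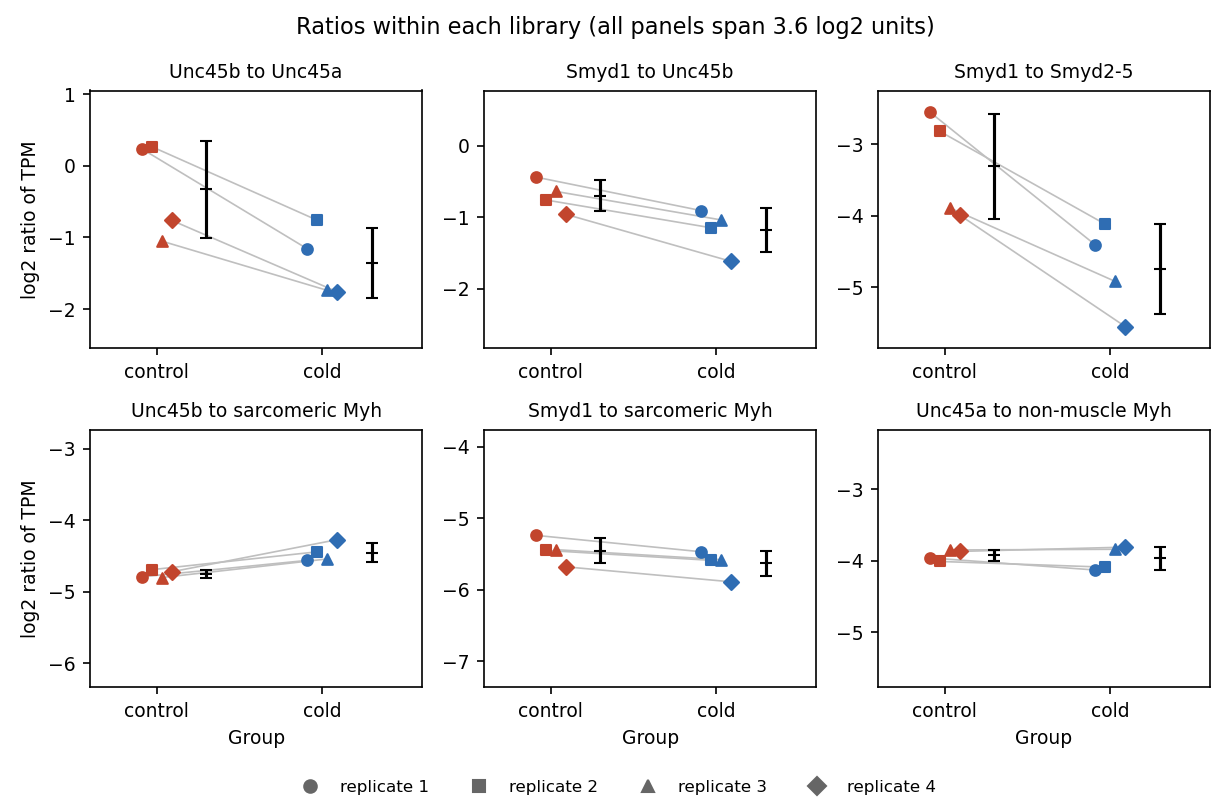
The log2 ratio of TPM within each library for the 6 ratios tested, with control in red, cold in blue, the replicate number as the marker shape, grey lines joining libraries of the same number and black bars for the group mean ± SD. The ratio of Unc45b to sarcomeric myosin sits between -4.80 and -4.69 in controls and between -4.56 and -4.27 in cold libraries, and the ratio of Smyd1 to Unc45b is lower in the cold library of every number.

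The genes around the members were described by lists. Of 10 sarcomeric myosin heavy chains listed, 7 had values and 3 had enough counts to be tested. Of these 3, 2 fell in the fit with the block, and none passed without it (1 at an unadjusted p under 0.05, and 1 called by DESeq2). Myh3 went from 366 ± 123 TPM to 137 ± 33.6 TPM (log2 fold change with the block -1.41, SE 0.07, edgeR adjusted p 1.5e-10). Myh1, a fast adult myosin, went from 57.8 ± 22.1 TPM to 36.9 ± 11.1 TPM (log2 fold change with the block -0.64, SE 0.05, edgeR adjusted p 1.2e-07). The third, Myh4, had a log2 fold change of 0.32 with the block (edgeR adjusted p 0.295), at 0.595 ± 0.237 TPM and 0.748 ± 0.249 TPM. The median of the 3 with the block was -0.64, beside 0.0075 for all genes tested. None of the 3 non-muscle and smooth muscle myosins tested passed in edgeR with or without the block or in DESeq2, with a median of 0.08 and 1 of 3 higher at an unadjusted p under 0.05.

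No gene for HSP90 or for the proteins that work with it or turn over UNC45 passed the test. All 9 genes with values, of 10 listed, were tested, and 0 passed in either direction in edgeR with or without the block or in DESeq2, nor at an unadjusted p under 0.05. Their median log2 fold change was 0.05, and Hsp90aa1, the inducible HSP90, stood at 1120 ± 113 TPM in controls and 1170 ± 43.9 TPM in cold libraries.

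Among 6 transcription factors that are known to act on Smyd1 or on the muscle programme and had enough counts (of 7 listed), 5 fell in the fit with the block, 1 (Srf) had a log2 fold change of 0.14 and did not pass (higher at an unadjusted p under 0.05, edgeR adjusted p 0.103), and none passed without the block (1 at an unadjusted p under 0.05, and 1 called by DESeq2). Mef2c, an activator of muscle genes, went from 23.2 ± 10.3 TPM to 8.44 ± 2.18 TPM, with a log2 fold change of -1.43 (SE 0.09, edgeR adjusted p 3.43e-09 with the block), close to that of Smyd1. Myog, the differentiation factor myogenin, went from 738 ± 316 TPM to 449 ± 172 TPM (log2 fold change with the block -0.71, SE 0.04, edgeR adjusted p 2.96e-09). Myod1, the myogenic determination factor, had a log2 fold change of -0.13 with the block (edgeR adjusted p 0.02), and Mef2d of -0.18 (edgeR adjusted p 0.0399). This list shares Myog with the markers of differentiated muscle and Myod1 with the SC and myoblast markers, and its median was -0.18, beside 0.0075 for all genes tested.

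Of 8 described SMYD partners and substrates listed, 6 were tested, since no single row with values bore the symbols Naca or Trp53. With the block 2 of 6 fell, against 4.07% of all genes tested. A further 2 were higher with the block at an unadjusted p under 0.05, and 0 were called higher. None passed without the block (1 lower at an unadjusted p under 0.05, and 1 called lower by DESeq2). Rb1, the retinoblastoma protein and a substrate of SMYD2, went from 25.4 ± 3.10 TPM to 18.8 ± 1.37 TPM (log2 fold change with the block -0.45, SE 0.05, edgeR adjusted p 1.01e-05). Ttn, the giant sarcomeric protein titin, had a log2 fold change of -0.18 (SE 0.04, edgeR adjusted p 0.0159 with the block), although its TPM was lower in only 2 of 4 pairs. The list's median was -0.01.

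None of the other SET-domain lysine methyltransferases was called lower. Of 23 listed, 22 were tested, and 0 passed as lower in edgeR with or without the block or in DESeq2, nor at an unadjusted p under 0.05. With the block 16 had a positive and 6 a negative log2 fold change, and 4 were higher at an unadjusted p under 0.05. In that fit 1 of 22 was called higher, against 1.26% of all genes tested. That gene was Ezh2, the catalytic subunit of the Polycomb complex that methylates histone H3, which went from 68.7 ± 4.58 TPM to 80.3 ± 2.67 TPM (log2 fold change 0.21, SE 0.04, edgeR adjusted p 0.00385 with the block, 0.267 without). The median of the list with the block was 0.06, beside 0.0075 for all genes tested.

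**Figure D4:**
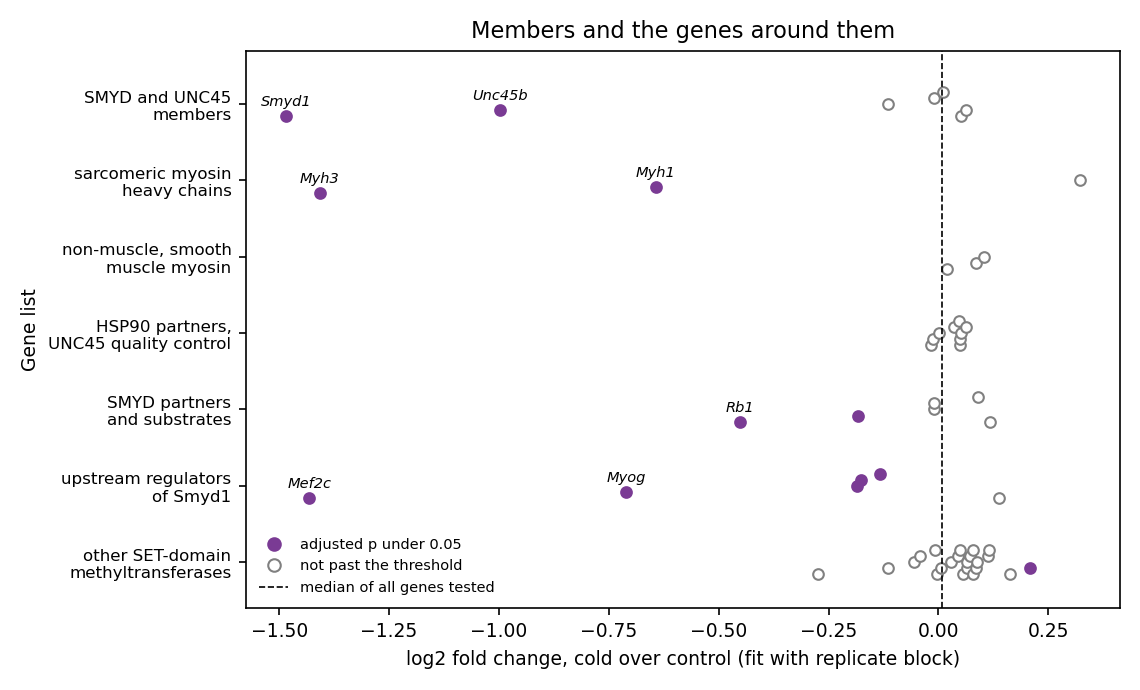
Log2 fold change, cold over control, from the edgeR fit with the replicate block, for the members and the tested genes of each list, with filled points past an adjusted p of 0.05 and a dashed line at the median of all genes tested (0.0075). Smyd1 and Unc45b lie with Myh3, Mef2c, Myog and Myh1 on the left, and the other SMYD and UNC45 genes lie with the HSP90 partners and the other SET-domain genes near the dashed line.

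The genes whose TPM followed Smyd1 most closely over the 8 libraries, by Pearson correlation of log2(TPM + 0.1) among 10499 genes, were Ldb3 (r = 0.994), Tnnt1 (0.992), Actn2 (0.991), Rai2 (0.989) and Mybph (0.989). Ldb3, a Z-disc protein, stood in the cold at 28.0% of its control mean, and Tnnt1, a slow troponin T, at 22.1%. Those nearest to Unc45b included Actn3 (r = 0.995), Svil (0.995), Hjv (0.993) and Klhl41 (0.992), which stood in the cold at 46.6% (Svil) to 68.1% (Actn3) of their control means. The genes named for Smyd1 and for Unc45b did not overlap. Only the top of each ranking was named, so this does not show that Smyd1 and Unc45b follow different genes. Smyd1 and Unc45b themselves correlated at r = 0.96 over the 8 libraries, and at r = 0.9 for deviations from the group means. The libraries share the split of replicates 1 and 2 from 3 and 4. This split enters each r, together with the difference between groups where group means were not removed.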

How the data were processed

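RNA-seq values of 4 control and 4 cold libraries of hamster SCs were taken from a single table of the whole series. The authors deposited expected counts that were not normalized, of which 96.4% to 96.6% per library were whole numbers. The TPM columns were deposited as the authors had scaled them. Further columns, a count signal that the authors had normalized with a factor of 0.924 to 1.02 per library, were not tested here. HISAT and HISAT2 are named in the submitters' processing notes. The counting program and genome build are not given in the sources used here, so no coordinates are printed, and a RefSeq table (BCM_Maur_2.0) served for names only (7 of 7 members matched).

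Expected counts were rounded and fitted over all 12506 genes past filterByExpr with edgeR 4.0.16 in R 4.3.3 (TMM factors, quasi-likelihood F test, Benjamini-Hochberg adjustment), and a gene was called at an adjusted p under 0.05. TPM and log2 ratios of TPM were compared by exact two-sided permutation over 70 arrangements, with p no smaller than 0.0286, in Python 3.11.15 with scipy 1.17.1. Figures were drawn with matplotlib 3.10.9. The scripts were tested on simulated data. Reads had no molecular identifiers, so counting errors cover counting alone. Without the block, p-values set the difference between groups against the spread between these libraries. With the block, they set it against the spread left after the replicate numbers are fitted.

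Replicate numbers come from the titles. Across 12506 genes, which are not independent, deviations from the group means of libraries of the same number correlated at 0.609, 0.618, 0.647 and 0.659. Libraries of different numbers correlated at 0.432 to 0.591 within replicates 1 and 2 or 3 and 4, and negatively otherwise, so that much of this is the split of replicates 1 and 2 from 3 and 4. With every same-number correlation over 0.1, the numbers were taken as pairing, and the edgeR fit was repeated with replicate number as a blocking term. Numbers exchanged within replicates 1 and 2 or within 3 and 4 would also pass 0.1, so this threshold cannot show which libraries belong together. What a replicate number marks is not stated in the sources used here, and every result with the block or over pairs rests on this assumption. Replicates of a group differed by more than sampling noise.

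The members and gene lists were chosen with earlier results of these data known, and Smyd1 and Unc45b are among the genes the study lists as lowered. Genes named are the members, the 5 genes most correlated with Smyd1 and with Unc45b (a mean of at least 1 TPM, LOC symbols left out), and, per list, genes past the threshold in either fit, at most the 3 with the largest change and the 2 most abundant. A single gene of the set for Unc45b is not reported here. Srf, Hsp90aa1, Myh4 and the cell type markers given singly were named after their values were seen. Alternatives were DESeq2 1.42.0, library totals, RLE factors, a filter of a mean of 10 counts per group or of 1 count in all, limma 3.58.1 on log2-scaled TPM with 0.1, 1 or 0.01 added (at least 0.1 TPM in 4 libraries, or no filter), and leaving out each library. For ratios, TMM-normalized counts and a pseudocount of 0.1 TPM were tried. The block with RLE factors, library totals or DESeq2, the block without 1 pair, and replicates 1 and 2 or 3 and 4 alone were added after seeing the data. Sequences were not used here.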

Additional observations from a re-analysis of the deposited data

How the results depend on the processing

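Smyd1 and Unc45b had a negative log2 fold change in all 27 alternatives, from -1.70 to -1.21 and from -1.21 to -0.74, but each was called in only 11 of them, with adjusted p-values from 1.53e-22 to 0.682 and from 3.6e-15 to 0.856. Both became called with the replicate block (Smyd1 -1.49, Unc45b -0.998), with DESeq2 (-1.51 and -1.03), with the block and RLE factors (-1.49 and -1.001), library totals (-1.48 and -0.99) or DESeq2 (-1.47 and -0.98), in replicates 1 and 2 alone (-1.65 and -1.21) and in replicates 3 and 4 alone (-1.24 and -0.74). With the block and 1 pair left out, they stood at -1.61 to -1.33 and -1.09 to -0.86. In these same fits 2 members were called lower in place of 0. With the fold threshold added, 2 were called by DESeq2, the block with RLE factors and replicates 1 and 2 alone. The block, the block with library totals or DESeq2, and replicates 3 and 4 alone called 1, and the block with a pair left out called 1 to 2. Unc45b made the difference: it lay close to the threshold over all libraries, past it in replicates 1 and 2 alone and short of it in replicates 3 and 4 alone. Without the block, leaving out any single library called neither gene (Smyd1 -1.70 to -1.24, Unc45b -1.21 to -0.85).

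The other 5 members were called in none of the 27 alternatives, with log2 fold changes between -0.22 (Smyd3) and 0.12 (Smyd4 and Unc45a). No ratio passed the adjusted threshold under any of its 11 tested alternatives, which include sign-flips over the paired replicate numbers. With 1 library left out the exact p cannot fall below 0.0571, and over 4 pairs not below 0.125, so these say nothing about stability. The difference in the log2 ratio of Unc45b to sarcomeric myosin lay between 0.24 and 0.34 in these alternatives and was 0.24 in replicates 1 and 2 alone and 0.36 in replicates 3 and 4 alone. The spread of Smyd4 between libraries was no larger than its counting error.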
